A study of Mus musculus with 6 samples.

Results

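The 10 imprinted genes followed were H19, Igf2, Kcnq1ot1, Cdkn1c, Meg3, Dlk1, Peg3, Plagl1, Impact and Grb10. Their RNA was measured in cells described as female germline stem cells (FGSCs), with and without knockdown of CTCF. They were chosen by name, as imprinted genes at loci for which control by CTCF has been described, and all 10 were found among the 24728 gene symbols of the FPKM table and the 24809 symbols of the count table. FPKM is the number of sequenced fragments scaled to the length of the transcript and to the mapped fragments of the library. The mouse FGSCs, labelled as strain C57BL/6, came from neonatal ovaries of Ddx4-Cre; mT/mG mice and were kept in long-term culture on inactivated STO cells, a line of mouse embryonic fibroblasts. The shCTCF group (3 samples) carried a lentiviral short hairpin RNA against Ctcf and was selected with puromycin, and the control group also had 3 samples, for which the labels do not say what vector or treatment they received. Nothing in the labels says that the 3 samples of a group came from separate cultures, so the p-values measure only the spread between these samples, which may be technical.

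An imprinted gene is expressed mainly from the copy of 1 parent, because methylation of a control region differs between the maternal and the paternal chromosome. CTCF is a DNA-binding protein that folds chromatin into loops and separates enhancers from promoters. At the H19 and Igf2 locus it binds the unmethylated control region of the maternal chromosome, which keeps the shared enhancers from Igf2 and leaves them to H19. In the germline these methylation marks are erased and set anew according to sex. The RNA-seq reads were not assigned to parental copies, so the values below are levels of RNA and not a measurement of imprinting.

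The knockdown was seen in every library. Ctcf was at 58.2, 56.1 and 53.5 FPKM in the control group and 0.740, 0.550 and 0.629 FPKM in the shCTCF group (replicates 1, 2 and 3 in this order, here and in all values below). Total counts were 1686052 for control replicate 2 and between 5322636 and 7044272 in the other 5 samples, which makes 3 counts worth 1.78 CPM (counts relative to library size) in control replicate 2 and 0.426 to 0.564 CPM elsewhere. Most of the transcriptome differed between the groups, since 73% of the 9974 genes whose mean FPKM was 1 or more passed an adjusted p of 0.05 by limma (28.8% higher and 44.2% lower in the shCTCF group), and 69.1% of the 7339 genes tested passed it on counts by edgeR. The median log2 difference of all genes was -0.17, and of the called genes 39.5% were higher, compared with 50.9% after scaling the samples to the same median and 45.2% after quantile normalization. Defining FGSC markers were at or near 0, with Dppa3, Gfra1 and Sall4 at 0 in all samples and Ddx4, Dazl and Pou5f1 below 0.2 FPKM, and the summed FPKM of the 8 FGSC markers was 0.0694 to 1.27 in the control group and 11.3 to 12.2 in the shCTCF group, almost all of the latter from Ifitm3. In contrast, 11 of 16 haematopoietic markers had a mean of at least 1 FPKM. Kit was at 571, 612 and 541 FPKM in the control group and 799.8, 771 and 788 FPKM in the shCTCF group. Mean FPKM in the control and shCTCF groups was 104 and 115 for Ptprc and 281 and 88.0 for Cpa3. Of the same markers, Fcer1a was at 0 in all samples, and Ms4a2, Tpsb2, Itgam and Csf1r stayed below 1 FPKM.

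**Figure D1:**
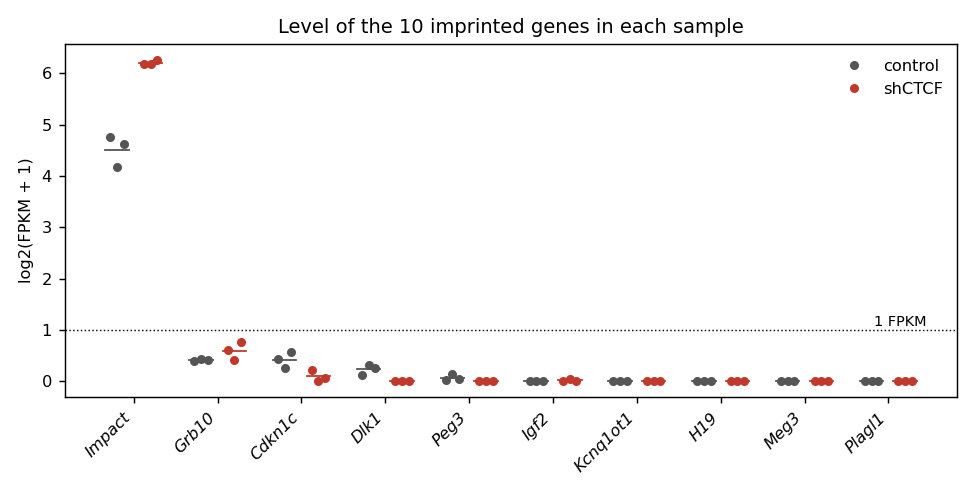
FPKM of the 10 imprinted genes as log2(FPKM + 1) on the vertical axis, with 1 point per sample (grey control, red shCTCF, n = 3 each), a short line at each group mean and a dotted line at 1 FPKM. Impact lies between 17.0 and 75.7 FPKM with no overlap between the groups, and no other gene reaches 1 FPKM in a sample.

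Of the 10 genes, 1 (Impact) had at least 1 FPKM in every sample. H19, Meg3 and Plagl1 were listed at 0 FPKM in all 6 samples and also had 0 counts. Such 0 counts are a weak check, since fragments falling in exons of several transcripts were left unassigned. The other 6 genes had a value above 0 in some sample and at most 0.691 FPKM, the value of Grb10 in shCTCF replicate 3. Among 15 housekeeping genes, 0 were listed at 0 FPKM in a sample, but a listed 0 does not always mean that fragments were absent. Of the 7065 symbols with at least 20 counts in some sample, 208 (2.94%) were listed at 0 FPKM in a sample with that many counts, 1 of them Kdm1b with 219 and 286 counts in control replicates 1 and 3. Groups did not overlap for 4 of the 10 genes, with Impact higher and Cdkn1c, Dlk1 and Peg3 lower in the shCTCF group, while 59.5% of the 15375 symbols with a value above 0 in some sample had groups that did not overlap. H19, Meg3 and Plagl1, at 0 in all samples, could not separate and are outside the base of that share. The plot of the 10 genes by sample shows this division into 1 expressed gene and 9 genes at or near 0.

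H19, a long non-coding RNA of the maternal chromosome, lies on chromosome 7 from 149761435 to 149764051 on the minus strand (mm9, as all coordinates of genes and sites here unless another build is named). Its 2 RefSeq transcripts were listed at 0 FPKM in both groups, and the count table could not check this, since only 4 bases of one lie outside the other. With 3 fragments taken as the smallest detectable number, the depth of the samples allowed H19 levels of up to 0.0996 to 0.418 FPKM to go unseen, and these floors cover counting error only. Igf2, the fetal growth factor at the other end of the locus (chromosome 7, 149836673 to 149852721, minus strand), was at 0.0304 FPKM in shCTCF replicate 2, which corresponds to 1.11 fragments, and at 0 FPKM in the other 5 samples. It had 0 counts in all samples, a weak check since most bases of its transcripts lie in other transcripts as well. Neither gene reached 3 fragments by FPKM in a sample, so the comparison gives no direction for the locus where control by CTCF is best known.

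Letters matching the core of the CTCF motif are shown for this locus because H19 and Igf2 were listed at or near 0. Binding at the control region is what links this locus to CTCF. In the 5 kb upstream of the H19 start, the core letters GGNGGCAG (any base at N) were found 6 times, 5 of them on the strand of H19. Each match is printed 5′ to 3′ with 16 bases on either side from the mouse reference of the same build, and capitals mark the core.
H19 upstream match 1, chr7:149765330-149765369, plus strand: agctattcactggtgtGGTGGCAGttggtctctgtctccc
H19 upstream match 2, chr7:149766198-149766237, minus strand: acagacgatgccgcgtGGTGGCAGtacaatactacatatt
H19 upstream match 3, chr7:149766653-149766692, minus strand: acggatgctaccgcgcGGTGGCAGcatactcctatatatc
H19 upstream match 4, chr7:149767679-149767718, minus strand: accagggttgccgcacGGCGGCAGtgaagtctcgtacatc
H19 upstream match 5, chr7:149767798-149767837, minus strand: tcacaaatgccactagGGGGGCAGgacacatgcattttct
H19 upstream match 6, chr7:149767923-149767962, minus strand: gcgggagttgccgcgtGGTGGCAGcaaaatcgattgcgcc

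**Figure D2:**
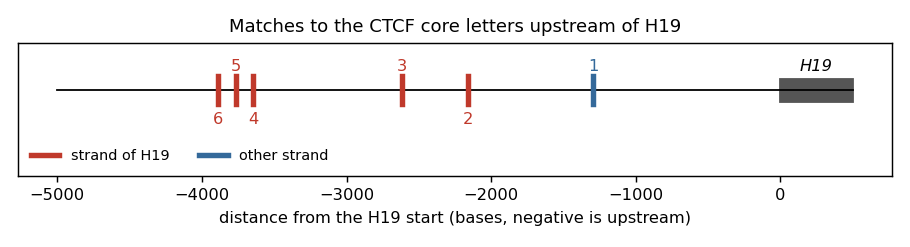
Positions of the 6 core matches on a scale of bases from the H19 start, with negative values upstream, red bars for matches on the strand of H19 and a blue bar for the match on the other strand. The grey box marks only the beginning of H19. The matches lie 1295 to 3888 bases upstream, and 3 of them (4, 5 and 6) lie within 300 bases of each other.

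The matches lay 1295, 2163, 2618, 3644, 3763 and 3888 bases upstream of the start. In matches 2, 3, 4 and 6 the letters ccgc stood before the core with 2 bases between, and in matches 1 and 5 they did not. A window of 5 kb upstream held at least 6 matches for 131 of 2557 start sites of chromosome 7 (5.12%), and the median was 2. These are letter matches only, since no binding or methylation was measured in the samples used here. The 300-base windows around gene starts (RefSeq, assembly GRCm38.p6) gave 12 windows for 7 of the 10 genes, with the core on either strand in 2 of them, 1 of Igf2 and 1 of Grb10, compared with 4139 of 32851 windows of all genes (12.6%). The set held no window for H19 and Cdkn1c. Windows on chromosome 18, where Impact lies, were left out of the 12 but not of the share over all genes.

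Most neighbours of H19 were at 0 as well. Of 6 other genes of the locus, Ins2, Igf2os, Th and Tnnt3 were listed at 0 in all samples, Lsp1 stayed below 1 FPKM, and Mrpl23 was the 1 gene tested. Mrpl23, which encodes a protein of the mitochondrial ribosome and lies 34.8 kb from H19, was at 48.5, 70.8 and 54.3 FPKM in the control group and 3.65, 3.23 and 3.52 FPKM in the shCTCF group. All 3 values of the shCTCF group were far below the lowest control value. On the log2(FPKM + 1) scale this was the largest decrease among the 34 imprinted and neighbouring genes tested (log2 difference -3.70, SE 0.14, adjusted p = 3.31e-07 by limma), whereas with pseudocounts of 0.1 and 0.01 Dcn, listed at 0 in the shCTCF group, came before it, and the count table gave a decrease of like size (log2 difference -3.67, adjusted p = 3.26e-09 by edgeR on counts).

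The Kcnq1 domain, on the same chromosome, is organised by Kcnq1ot1, a long antisense RNA of the paternal chromosome that silences its neighbours (150399016 to 150482452, minus strand, 1 transcript of 83437 bases). Its FPKM was 0.00417 in control replicate 3, 0.00484 in shCTCF replicate 1 and 0 in the other 4 samples, with 4 counts in each of these samples and 0 in the others. The libraries were made from mRNA, and levels of up to 0.00273 to 0.0114 FPKM could go unseen for this length. Cdkn1c, an inhibitor of cyclin-dependent kinases expressed from the maternal chromosome, lies at 150644244 to 150646955 on the minus strand. It was at 0.342, 0.190 and 0.492 FPKM in the control group and 0.159, 0 and 0.0468 FPKM in the shCTCF group, and the groups did not overlap. These values correspond to 8.0, 1.14 and 12.6 fragments in the control group and 3.36, 0 and 1.14 in the shCTCF group. The exact two-sided permutation test gave p = 0.1 for Cdkn1c, the smallest p that 3 against 3 samples allow. The count table held 0 counts for its 3 transcripts but could hardly check this, since only 38 bases lie in no other transcript.

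Of the 12 further genes of the Kcnq1 domain, 8 reached a mean of 1 FPKM. All 8 were called, 4 higher and 4 lower, beside 73% of all genes tested. On counts only Cd81 and Cars were tested, and Cars was not called (adjusted p = 0.134 by edgeR). Tnfrsf23, a decoy receptor for the death ligand TRAIL, rose from near 0, with 0.368, 1.14 and 0.844 FPKM in the control group and 15.3, 12.1 and 13.7 FPKM in the shCTCF group (log2 difference 3.06, SE 0.18, adjusted p = 2.86e-06 by limma). Cd81, a tetraspanin of the cell surface, was at 41.7, 33.3 and 40.4 FPKM in the control group and 131, 125 and 115 FPKM in the shCTCF group. Its control values lay within 10 FPKM of each other and all shCTCF values were above 100 (log2 difference 1.66, SE 0.10, adjusted p = 3.23e-06 by limma), and on counts it rose as well (log2 difference 1.88, adjusted p = 3.29e-08 by edgeR on counts). Tspan32, another tetraspanin and a near neighbour of Cd81, fell and was at 29.3, 31.1 and 26.1 FPKM in the control group and 8.39, 7.80 and 9.13 FPKM in the shCTCF group (log2 difference -1.66, SE 0.09, adjusted p = 2.77e-06 by limma). Tssc4, next to Cd81, also fell and was at 15.3, 22.5 and 19.4 FPKM in the control group and 5.02, 7.77 and 6.12 FPKM in the shCTCF group (log2 difference -1.46, SE 0.18, adjusted p = 0.000147 by limma). Some genes that Kcnq1ot1 is known to silence, such as Phlda2 and Ascl2, had at most 0.604 and 0.0552 FPKM in a sample. Kcnq1 itself had at most 0.0614 FPKM. Slc22a18, which lies between Cdkn1c and Phlda2, was expressed and was higher in the shCTCF group. It was at 2.29, 4.08 and 1.96 FPKM in the control group and 4.50, 5.22 and 5.74 FPKM in the shCTCF group. The log2 difference was 0.74 (SE 0.20, adjusted p = 0.0120 by limma), and it was not tested on counts.

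Dlk1 and Meg3 form an imprinted pair on chromosome 12 in which Dlk1, a transmembrane ligand related to those of Notch, is expressed from the paternal and Meg3, a long non-coding RNA, from the maternal chromosome. Dlk1 (110691033 to 110701546, plus strand) was at 0.0917, 0.250 and 0.200 FPKM in the control group and 0, 0 and 0 FPKM in the shCTCF group. Low values in all 3 controls stood against 0 in all 3 shCTCF samples, and they correspond to 4.57, 3.40 and 11.4 fragments. The exact two-sided permutation p was 0.1, the smallest possible here, and no fold is given because the shCTCF group was listed at 0. The count table held 0 counts but could hardly check this. Only 472 bases, all of a single transcript, lie in no other transcript. Meg3 (110779206 to 110809939, plus strand) was at 0 throughout, as were the non-coding RNAs Rian and Mirg and the genes Rtl1, Dio3 and Begain of the same cluster. Of the flanking genes, Wars, a tryptophanyl-tRNA synthetase, fell slightly (log2 difference -0.56, SE 0.09, adjusted p = 0.000882 by limma), and Wdr25 did not pass the test (95% interval of the log2 difference -0.48 to 0.23).

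Peg3, a zinc finger protein of the paternal chromosome (chromosome 7, 6658671 to 6683130, minus strand), was at 0.0157, 0.109 and 0.0262 FPKM in the control group and 0, 0 and 0 FPKM in the shCTCF group. Its counts were 1, 2 and 2 in the control group and 0 in the shCTCF group, so both groups stayed under 3 counts per sample in spite of the absence of overlap (exact two-sided permutation p = 0.1, the smallest possible). Its neighbours Usp29, Zim1, Zim2 and Zim3 were listed at 0 FPKM in all samples, and of these Usp29 had 2 counts in control replicate 1. Only Zscan22 was tested (log2 difference -0.43, SE 0.15, adjusted p = 0.0297 by limma). Zscan22 lies at 13483158 to 13494432 on the same chromosome, far outside the imprinted cluster. Its call was lost without control replicate 1 or 2 or shCTCF replicate 1 or 3 (adjusted p = 0.0537, 0.0526, 0.0909 and 0.0943) and with scaling to the same median (0.119). Plagl1, a zinc finger protein that slows the cell cycle and is expressed from the paternal chromosome (chromosome 10, 12810638 to 12851501, plus strand), had 0 FPKM and 0 counts in every sample, as did the overlapping RNA Hymai. Levels of Plagl1 of up to 0.0437 to 0.206 FPKM could go unseen. Its 0 counts add little, since most bases of its transcripts lie in other transcripts as well. The nearby Sf3b5, a splicing factor subunit, and Ltv1, which acts in ribosome assembly, both fell (log2 differences -1.09 and -0.76 by limma).

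Grb10, an adaptor protein that dampens signalling by the insulin and IGF1 receptors, lies on chromosome 11 from 11830502 to 11937423 on the minus strand. It was at 0.312, 0.355 and 0.328 FPKM in the control group and 0.516, 0.325 and 0.691 FPKM in the shCTCF group. The controls were within 0.05 FPKM of each other, whereas shCTCF replicate 2 lay inside their range and the other 2 shCTCF samples above it. The means were 0.332 ± 0.0216 and 0.511 ± 0.183 FPKM (SD, n = 3 each), and the exact two-sided permutation test gave p = 0.3. The Grb10 values correspond to 18.3, 5.67 and 20.6 fragments in the control group and 29.1, 15.6 and 42.3 in the shCTCF group. All were above 3 fragments, although the levels stayed under 1 FPKM. Of 2 transcripts, the count table held 2 counts in control replicate 2 and 0 in the other samples. Most bases of these transcripts are shared, so the counts are a weak check. Neighbouring Fignl1, an ATPase of DNA repair, was slightly lower (log2 difference -0.40, SE 0.13, adjusted p = 0.0259 by limma), while Ddc and Cobl had a mean under 1 FPKM. The call of Fignl1 was lost without control replicate 1 or 3 or shCTCF replicate 1 or 3 (adjusted p = 0.0813, 0.0537, 0.0933 and 0.0842 by limma) and with scaling to the same median (0.178). Over all alternative fits on FPKM its log2 difference ranged from -0.53 to -0.21, and its adjusted p reached 0.472 by limma.

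Impact was the 1 gene of the 10 that was clearly expressed. It encodes a protein that binds GCN1 and thereby restrains the kinase GCN2, and in the mouse it is expressed from the paternal chromosome. It lies on chromosome 18 from 13130432 to 13151459 on the plus strand. Impact was at 26, 17 and 23.5 FPKM in the control group and 71.4, 72 and 75.7 FPKM in the shCTCF group. Every shCTCF sample had more than 2 times the level of the highest control, and control replicate 2, the library with the fewest counts, was the lowest. The means were 22.2 ± 4.65 and 73.0 ± 2.32 FPKM (SD, n = 3 each), a ratio of 3.29, and limma gave a log2 difference of 1.70 (SE 0.14, 95% interval 1.36 to 2.03, adjusted p = 1.97e-05). The exact two-sided permutation p was 0.1, the smallest possible. Among all 9974 genes tested, 511 (5.12%) had a larger log2 difference, so that an increase of this size was uncommon while the call itself was not.

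**Figure D3:**
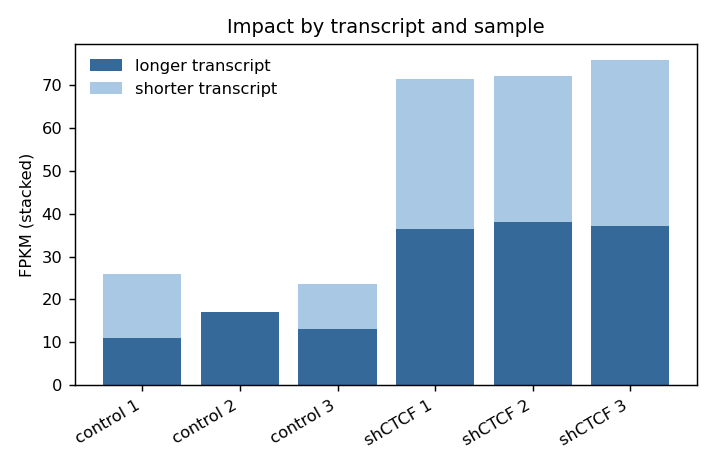
FPKM of Impact in each of the 6 samples, stacked by its 2 RefSeq transcripts (dark blue the longer, light blue the shorter). The summed bars reach 17.0 to 26.0 FPKM in the control group and 71.4 to 75.7 FPKM in the shCTCF group, and the shorter transcript is at 0 in control replicate 2.

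Both Impact transcripts were higher in the shCTCF group. The longer one (3763 bases) was at 11.1, 17.0 and 13.2 FPKM in the control group and 36.5, 38.1 and 37.0 FPKM in the shCTCF group. The shorter one (3389 bases) was at 14.9, 0 and 10.3 FPKM and at 34.9, 33.9 and 38.7 FPKM. In control replicate 2 all of the signal was assigned to the longer transcript, as the stacked plot of Impact shows. The transcripts differ little, with 450 and 76 bases in no other transcript, and their split is an estimate by Cufflinks. With the transcript of the highest mean alone the log2 difference was 1.39.

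The count table could not be used for Impact. It held 2, 1 and 1 counts in the control group and 4, 1 and 9 in the shCTCF group, 18 in all, whereas about 11348 fragments would be expected from the FPKM, the transcript lengths and the relation of counts to FPKM in genes with 1 transcript. By the settings of its header, fragments falling in exons of several transcripts were left unassigned. None of the 10 genes passed the filter on low counts (0 tested by edgeR, and DESeq2 made 0 calls). Without the filter 4 had a count above 0, of which 1, Peg3, had an unadjusted p under 0.05 and 0 had an adjusted p under 0.05 by edgeR. The increase of Impact therefore rests on the FPKM table alone. The same holds for Ctcf, Tnfrsf23, Mest, Dnmt1 and several other genes given by limma alone, since they did not pass the filter on low counts.

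Both neighbours of Impact that were tested were higher as well. Osbpl1a, an oxysterol-binding protein next to Impact, was at 4.04, 3.74 and 3.45 FPKM in the control group and 5.08, 4.75 and 5.08 FPKM in the shCTCF group, a small increase (log2 difference 0.33, SE 0.10, adjusted p = 0.0148 by limma) that did not pass the test on counts (adjusted p = 0.153 by edgeR). Its call on FPKM was lost without control replicate 3 or shCTCF replicate 3 (adjusted p = 0.0554 and 0.0532 by limma). Cabyr, a calcium-binding protein of the sperm tail, was at 0.0714, 0.555 and 0.212 FPKM in the control group and 2.99, 3.34 and 1.24 FPKM in the shCTCF group. It rose from values under 1 FPKM (log2 difference 1.42, SE 0.27, adjusted p = 0.00193 by limma), and the ratio of its means was 9.03, which the log2(FPKM + 1) scale understates for a gene this low (log2 difference 2.89 with a pseudocount of 0.1). Hrh4 and Ttc39c had at most 0.0579 FPKM in a sample.

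The imprinted genes or neighbours whose course over the 6 samples was most like that of Impact were Cd81 and Atp10a. The root mean square difference of their centred log2(FPKM + 1) values was 0.12 and 0.20, out of 33 genes compared. Atp10a, a phospholipid-transporting ATPase of the Ube3a region, was at 8.92, 7.07 and 8.75 FPKM in the control group and 23.9, 22.9 and 24.9 FPKM in the shCTCF group. It rose on FPKM (log2 difference 1.44, SE 0.10, adjusted p = 7.59e-06 by limma) and on counts (log2 difference 1.71, adjusted p = 6.38e-09 by edgeR on counts). By level, Impact ranked 12 of the 34 in the control group and 3 in the shCTCF group.

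**Figure D4:**
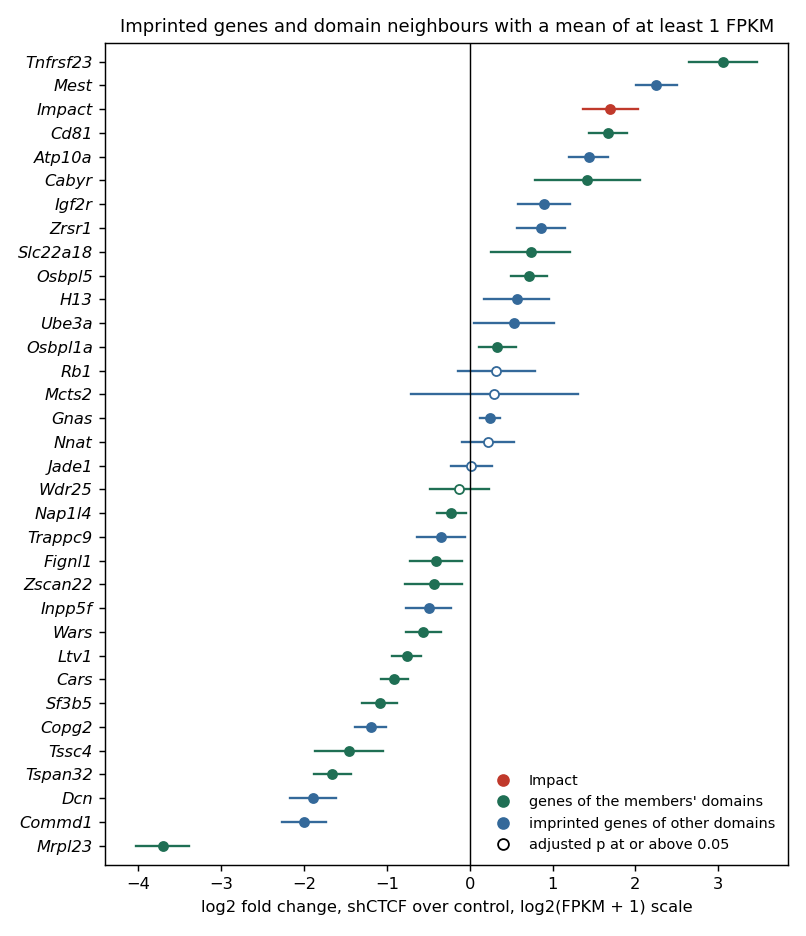
Log2 difference (shCTCF over control, log2(FPKM + 1) scale, horizontal axis) of the 34 imprinted genes and domain neighbours that were tested, with 95% intervals from limma. Red marks Impact, green the genes of its and the other 9 genes' domains (with Zscan22, which lies far from Peg3), blue imprinted genes elsewhere, and open circles an adjusted p at or above 0.05. Values run from -3.70 for Mrpl23 to 3.06 for Tnfrsf23.

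Taking all domains of the 10 genes, 17 of 41 other genes were tested and 16 were called (94.1%, beside 73% of all genes tested), 6 higher and 10 lower, with a median log2 difference of -0.40 beside -0.17 for all genes. These counts include Zscan22, which lies far from Peg3. On counts 4 of 7 tested were called. Of 40 imprinted genes of other domains, 16 were tested and 12 called (75%, near the 73% of all genes), 7 higher and 5 lower, with a median of 0.27, and 14 were listed at 0 in all samples. On counts 6 of 10 were called. The plot of the 34 log2 differences shows members of both lists on either side of 0.

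Mest, an enzyme of the hydrolase family and a paternally expressed gene, rose most among the imprinted genes of other domains. It was at 5.28, 4.03 and 4.30 FPKM in the control group and 23.9, 24.9 and 27.1 FPKM in the shCTCF group (log2 difference 2.25, SE 0.11, adjusted p = 1.11e-06 by limma). Copg2, a coat protein subunit whose gene overlaps Mest by 913 bases on the other strand, fell and was at 21.4, 19.6 and 20.0 FPKM in the control group and 7.77, 8.56 and 8.65 FPKM in the shCTCF group (log2 difference -1.19, SE 0.08, adjusted p = 6.23e-06 by limma). A comparable pair is Commd1, which acts in copper handling, and Zrsr1, a paternally expressed gene inside Commd1 on the other strand that is named here after its values were seen. Commd1 fell and was at 71.2, 88.3 and 77.1 FPKM in the control group and 16.6, 21.5 and 19 FPKM in the shCTCF group (log2 difference -2.0, SE 0.12, adjusted p = 2.86e-06 by limma). Zrsr1 rose and was at 9.95, 13.7 and 10.2 FPKM in the control group and 19.6, 21.5 and 22.5 FPKM in the shCTCF group (log2 difference 0.86, SE 0.13, adjusted p = 0.000417 by limma). On counts both moved the same way (Commd1 log2 difference -2.43 and Zrsr1 1.20, adjusted p = 9.84e-05 and 7.47e-07 by edgeR). The fragments were counted without strand, so those in exons shared by overlapping partners could not be told apart and were left unassigned in the count table.

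Igf2r, the maternally expressed receptor that removes IGF2 from the cell surface, was at 0.989, 1.46 and 0.954 FPKM in the control group and 3, 2.71 and 3.13 FPKM in the shCTCF group. It rose (log2 difference 0.89, SE 0.13, adjusted p = 0.000492 by limma), and the count table gave a larger increase (log2 difference 1.61, adjusted p = 4.58e-07 by edgeR on counts). Dcn, the proteoglycan decorin, was at 2.76, 2.59 and 2.79 FPKM in the control group and 0, 0 and 0 FPKM in the shCTCF group and passed the test (adjusted p = 4.58e-06 by limma). Its counts were only 2, 0 and 3 in the control group and 0 in the shCTCF group, and because Dcn is listed at 0 no fold is given. Dcn is also a fibroblast marker. Of the 16 fibroblast markers, 4 were higher and 2 lower, their summed FPKM was 104 to 132 in the control group and 148 to 195 in the shCTCF group, mostly from S100a4, and Col3a1 and Lum were at 0 in all samples. The summed FPKM of the 16 haematopoietic markers was 1879 to 1942 and 2264 to 2357 (6 higher and 2 lower), and that of 10 markers of granulosa cells and oocytes 0.297 to 1.03 and 0.444 to 0.756. The part of such shifts in the changes of Impact and the other imprinted genes was not tested, and in bulk samples fewer cells of a type and less RNA per cell cannot be told apart.

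Factors that place or keep imprints were measured in the same libraries. Of 17 such genes, 12 were tested and 9 called (75%, near the 73% of all genes, and counting Ctcf as the target of the knockdown), 3 higher and 6 lower, with a median log2 difference of -0.25, and on counts 4 of 6 were called. Dnmt1, the DNA methyltransferase that copies methylation at replication, was at 89, 109 and 85.3 FPKM in the control group and 24.5, 26.2 and 25.4 FPKM in the shCTCF group. It fell (log2 difference -1.85, SE 0.10, adjusted p = 1.88e-06 by limma) to about the same extent in each shCTCF sample. Trim28, the corepressor that protects imprinted control regions from demethylation, was at 124, 144 and 116 FPKM in the control group and 42, 46 and 44.9 FPKM in the shCTCF group. It fell as well, on FPKM (log2 difference -1.50, SE 0.09, adjusted p = 3.5e-06 by limma) and on counts (log2 difference -1.30, adjusted p = 3.57e-08 by edgeR on counts). Arid4b, a chromatin protein linked to imprinting at the Prader-Willi region, was at 13.9, 10.5 and 14.5 FPKM in the control group and 23.5, 22.9 and 24.3 FPKM in the shCTCF group. It rose on FPKM (log2 difference 0.83, SE 0.12, adjusted p = 0.000424 by limma) but did not pass the test on counts (adjusted p = 0.143 by edgeR). Dnmt3l, the cofactor of de novo methylation in germ cells, was at 1.88, 2.26 and 1.07 FPKM in the control group and 4.74, 3.10 and 2.74 FPKM in the shCTCF group (log2 difference 0.73, SE 0.22, adjusted p = 0.0179 by limma), and its call was lost without control replicate 3 or shCTCF replicate 1 (adjusted p = 0.0514 and 0.0645). Setdb1, a histone methyltransferase that acts with Trim28, was at 18.3, 21.6 and 15 FPKM in the control group and 22.6, 24.4 and 21.9 FPKM in the shCTCF group with an adjusted p of 0.047 by limma, and it missed the threshold in 10 of 15 alternative fits. The plot of log2 differences in these pathways shows Ctcf, Dnmt1 and Trim28 as the lowest 3 of the factors.

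**Figure D5:**
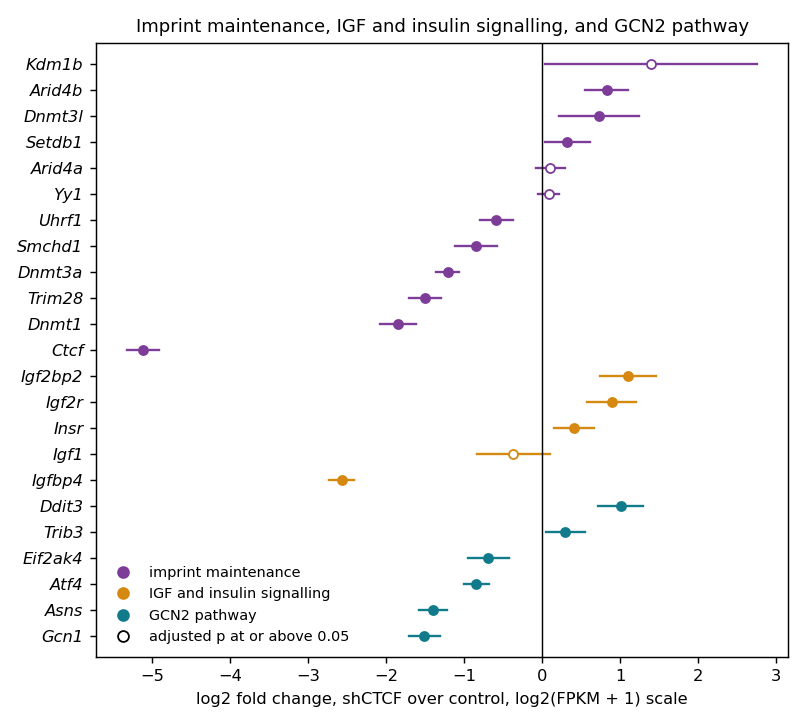
Log2 difference (shCTCF over control, log2(FPKM + 1) scale, horizontal axis) with 95% intervals from limma for factors of imprint maintenance (purple), IGF and insulin signalling (orange) and the GCN2 pathway (teal). Open circles mark an adjusted p at or above 0.05; all 6 GCN2 pathway genes are filled, from -1.51 for Gcn1 to 1.01 for Ddit3.

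Igf2 and Grb10 act in IGF and insulin signalling, of which 16 genes were followed, 5 tested and 4 called (80%, beside 73% of all genes, 3 higher and 1 lower, median log2 difference 0.41, 5 listed at 0 in all samples). On counts all 5 tested were called. Igfbp4, a secreted protein that binds IGFs, was at 286, 317 and 290.2 FPKM in the control group and 50.7, 50.7 and 46.5 FPKM in the shCTCF group. It fell on both tables (log2 difference -2.57, SE 0.07, adjusted p = 7.98e-08 by limma, and log2 difference -2.39, adjusted p = 1e-10 by edgeR on counts). Igf2bp2, an RNA-binding protein that regulates Igf2 mRNA among others, was at 0.215, 0.463 and 0.312 FPKM in the control group and 1.53, 1.79 and 2.28 FPKM in the shCTCF group. It rose (log2 difference 1.10, SE 0.15, adjusted p = 0.000326 by limma), and counts gave a larger change (log2 difference 2.99, adjusted p = 9.84e-07 by edgeR on counts). Insr, the insulin receptor, was at 3.86, 4.48 and 3.72 FPKM in the control group and 5.11, 5.68 and 6.26 FPKM in the shCTCF group (log2 difference 0.41, SE 0.11, adjusted p = 0.0105 by limma), a small increase that was lost with the transcript of the highest mean (adjusted p = 0.157 by limma).

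The pathway in which Impact acts was also followed. When amino acids are scarce, GCN1 helps to activate GCN2 (the gene Eif2ak4), which raises translation of ATF4, and ATF4 induces Asns, Ddit3 and Trib3. All 6 of these genes were tested and called, beside 73% of all genes, 2 higher and 4 lower, with a median log2 difference of -0.77, and on counts 3 of 4 were called. In the alternative fits on FPKM, 4 to 6 were called. Gcn1 was at 34.2, 39.2 and 32.7 FPKM in the control group and 11.8, 11.8 and 11.6 FPKM in the shCTCF group. It fell on FPKM (log2 difference -1.51, SE 0.08, adjusted p = 2.48e-06 by limma) and on counts (log2 difference -1.37, adjusted p = 2.8e-08 by edgeR on counts). Eif2ak4 fell by 0.69 on the log2 scale (adjusted p = 0.000789 by limma), a call that was lost with the transcript of the highest mean (adjusted p = 0.435). Atf4 was at 662, 757 and 696 FPKM in the control group and 371, 405 and 401 FPKM in the shCTCF group (log2 difference -0.84, SE 0.07, adjusted p = 1.73e-05 by limma). Asns, asparagine synthetase, was at 194, 180.2 and 209 FPKM in the control group and 68.9, 73.5 and 76.9 FPKM in the shCTCF group (log2 difference -1.40, SE 0.08, adjusted p = 2.12e-06 by limma). Ddit3, the stress factor CHOP, was at 309, 421 and 325 FPKM in the control group and 633, 729 and 751 FPKM in the shCTCF group and rose on FPKM (log2 difference 1.01, SE 0.12, adjusted p = 0.000166 by limma), while counts gave a log2 difference of 0.20 (adjusted p = 0.531 by edgeR). Trib3 was at 160, 195 and 159 FPKM in the control group and 185, 227 and 222 FPKM in the shCTCF group. It rose slightly on FPKM (log2 difference 0.30, SE 0.11, adjusted p = 0.0377 by limma) and on counts (log2 difference 0.49, adjusted p = 0.000464 by edgeR). On FPKM its groups overlapped, and its call was lost in several alternative fits, as given below. In the shCTCF group, RNA of Gcn1, Eif2ak4, Atf4 and Asns was thus lower, and that of Impact, Ddit3 and Trib3 higher. A link between Impact and these genes was not tested, and the activity of the pathway was not measured.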

How the data were processed

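RNA of 3 control and 3 shCTCF samples was compared. The authors made the deposited counts from alignments to mm9 with featureCounts 1.6.2, as whole fragments per RefSeq transcript accession, without strand and without assignment of fragments that overlap several accessions. The deposited FPKM were calculated by the authors with Cufflinks 2.2.1 after alignment with HISAT2 (listed as version 4.8.2 in the submitters' processing notes). The libraries were made with a stranded mRNA kit. The strand setting of Cufflinks is not given in the sources used here. The number of value columns without a sample was 0 in both tables. A heading row repeated at the end of the FPKM table was dropped (1 row).

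Accessions were matched to symbols with the RefSeq gene table of GRCm38.p6, used for names only (41181 of 41388 accessions with counts and 41680 of 41876 FPKM rows), and values were summed per symbol. Counts without a symbol made up 0.394 to 0.622% of a sample and were left out. Genes whose mean FPKM was 1 or more were tested on log2(FPKM + 1) with limma 3.58.1 (eBayes with trend, R 4.3.3). These differences understate the change of low genes. Counts were tested with the edgeR 4.0.16 quasi-likelihood test (TMM, filterByExpr). Adjusted p-values are two-sided, by Benjamini-Hochberg over all genes tested, with a threshold of 0.05. Single genes were also given an exact permutation test. The fits were tested on simulated data.

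Alternatives were pseudocounts of 0.1 and 0.01, no filter or a mean of at least 5 FPKM, the transcript with the highest mean, scaling to the same median, quantile normalization, no trend, the replicate number as a block, DESeq2 1.42.0, library size only and leaving out single replicates. The 10 genes, the gene lists and the tests were chosen with earlier results of these data known. Named from each list were at most 3 genes that rose and 3 that fell most among called genes without overlap, besides the 10 genes, Ctcf and the 2 most like Impact. Domain neighbours were also described with their values. Sequences were searched with Python 3.11.15 in the mm9 reference and the RefSeq promoter table. Levels below 3 fragments were taken as not detected.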

Additional observations from a re-analysis of the deposited data

How the results depend on the processing

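The increase of Impact kept its direction and its call in all 15 alternative fits on FPKM, with log2 differences from 1.39 (transcript with the highest mean) to 1.91 (samples scaled to the same median) and adjusted p-values from 2.96e-07 to 0.000296 by limma. Leaving out 1 replicate gave 1.52 (without control replicate 2) to 1.82 (without control replicate 1). The number of the 10 genes called was 1 in each of these fits except the fit without a filter on low values, which called 3 (Impact, Cdkn1c with an adjusted p of 0.0276 and Dlk1 with 0.00902 by limma). On counts it was 0 in all 11 alternatives, as few counts were assigned to these genes. Of the imprinted genes of other domains, 7 were called in place of 12 among genes with at least 5 FPKM, and of IGF and insulin signalling 7 were called without a filter and 1 at 5 FPKM in place of 4, since these filters change which genes are tested. Of the 6 GCN2 pathway genes, 4 were called with the transcript of the highest mean. Trib3 lost its call, leaving 5, without a filter, with quantile normalization and without the trend. The same held without control replicate 1 or 3 or shCTCF replicate 2 or 3. Among the other genes followed singly through the alternatives, the call on FPKM was lost for Setdb1 in 10, Zscan22 in 7, Fignl1 in 7, Dnmt3l in 3, Osbpl1a in 2, Eif2ak4 in 1 and Insr in 1, and no direction was reversed where a value was given. Single genes of low mean gave no value where a filter or an omitted replicate took them under the minimum, such as Igf2bp2 without shCTCF replicate 2 or 3. Setdb1 lost its call without any 1 replicate other than control replicate 2 (adjusted p = 0.0792 to 0.142 by limma).

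Both groups carry replicate numbers 1 to 3, but samples with the same number did not deviate together (correlations of -0.04, 0.02 and 0.04 over the genes tested, and 2 of 6 samples were closest to the sample of their own number). With the replicate number as a block, the log2 difference of Impact was 1.70 (adjusted p = 5.29e-05 by limma), 1 of the 10 genes was called, and 7136 genes were called in place of 7280. With 1 library at 1686052 counts and values of 9 genes under 1 FPKM, changes in these 9 genes were at or near the limit of what this depth can show. Of the 9, only Grb10 was above 3 fragments by FPKM in every sample.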
